A study of Homo sapiens with 6 samples.

Results

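The vitamin D pathway was represented by 6 genes, CYP24A1, CYP2R1, CYP27A1, CYP27B1, VDR and RXRA, chosen by name: a row of the value table belonged to the set when its annotated gene symbol was 1 of these 6. Each gene had 1 row, giving 6 rows of the 33297 in the table and of the 21214 rows that carried at least 1 gene symbol and were tested. Their signals were compared in MDA-MB-231, an established human triple-negative breast cancer line, in which short hairpin RNAs (shRNAs) were expressed: a control hairpin, or hairpin 162 or 159, both directed at TIP-1. TIP-1 is a small protein made of a single PDZ domain, and TAX1BP3 is its gene. The 3 groups had 2 independently derived clones apiece and each clone was measured on 1 array, so the clone is the replicate (n = 2 per group) and a group stands for 2 clones of 1 hairpin. All 6 cultures were kept overnight in serum-containing RPMI medium after trypsinisation and reseeding, and the labels name no vitamin D treatment. The values are log2 signals of Affymetrix Human Gene 1.0 ST arrays, which read transcripts along their length.

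Vitamin D becomes a hormone through successive hydroxylations. CYP2R1 in the endoplasmic reticulum and CYP27A1 in mitochondria make the circulating form, calcidiol, and CYP27B1 turns that into the active hormone, calcitriol. Calcitriol binds the vitamin D receptor (VDR), a nuclear receptor that pairs with the retinoid X receptor, encoded by RXRA, on direct repeats of a hexamer motif spaced by 3 bases, and the gene for CYP24A1, the mitochondrial enzyme that breaks calcidiol and calcitriol down, is its classical target. In breast epithelium and breast cancer lines the receptor and CYP24A1 are both known to be expressed, and CYP24A1 has been studied as a limit on local calcitriol.

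CYP24A1, singled out for its pattern in these data, was the member that differed most between groups. Its signal was 4.46-fold lower with shRNA 162 than in control clones, and 1.18-fold lower with shRNA 159. Of the other 5 members, only CYP2R1 passed the test in any comparison, lower with shRNA 162, and that call was lost when certain single arrays were left out. VDR, RXRA, CYP27B1 and CYP27A1 passed in no comparison.

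The targeted gene was checked first. TAX1BP3, whose row is annotated to a further gene as well, had a log2 signal of 11.61 ± 0.07 (SD, n = 2) in control clones, 9.93 ± 0.11 with shRNA 162 and 10.40 ± 0.001 with shRNA 159. The signal that remained was 31.3% of control with shRNA 162 (log2 difference −1.67, SE 0.08, limma adjusted p = 4.4e-05) and 43.4% with shRNA 159 (−1.20, adjusted p = 0.00034), so the labels and the target matched in all 4 shRNA clones. Array medians lay between 7.37 and 7.44, and clones of the same group correlated at 0.996 to 0.997 over the tested rows. All 7 markers of a mesenchymal breast line were measured, their mean per clone ran from 12.57 to 12.66, and 0 of them passed in any of the 4 comparisons. Of 8 luminal markers, ESR1, PGR and CDH1 were below the array median, KRT8 and KRT18 were near 12, EPCAM rose with shRNA 159 (0.94, adjusted p = 0.00086) and KRT8 fell with shRNA 162 (−0.44, adjusted p = 0.0266, up to 0.159 without control clone 1 or either shRNA 162 clone). The luminal mean per clone ran from 8.28 to 8.35 in control, 8.18 to 8.24 with shRNA 162 and 8.39 to 8.40 with shRNA 159; its part in the results on the members was not tested. Leukocyte, endothelial and adipocyte markers had 0 passing genes in any comparison, and of 6 fibroblast markers PDGFRB passed between the hairpins (shRNA 159 minus shRNA 162, 0.41, adjusted p = 0.0177, up to 0.127 without shRNA 159 clone 2 or either shRNA 162 clone).

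Over all tested rows, 9.52% passed for shRNA 162 against control (2019 rows, 1247 higher and 772 lower), 2.53% for shRNA 159 against control (537 rows, 359 higher and 178 lower) and 8.65% between the hairpins (852 rows or 4.02% higher and 984 or 4.64% lower with shRNA 159). After quantile normalization the split for shRNA 162 was 1078 higher and 1074 lower, and between hairpins it turned to 1071 higher and 855 lower with shRNA 159. Against these shares, 1 of the 5 tested members passed with shRNA 162, 0 with shRNA 159 and 0 between hairpins; for the mean of both hairpins against control, where 4.62% of rows passed (3.01% higher and 1.61% lower), 0 did (quantile normalization moved that split from 639 higher and 341 lower to 565 and 459).

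CYP24A1 (probe set 8067140, Entrez 1591, chromosome 20) gave log2 signals of 10.26 and 10.32 in the control clones, 7.99 and 8.26 in the shRNA 162 clones, and 10.06 and 10.04 in the shRNA 159 clones. Both shRNA 162 clones were far below all others, and the shRNA 159 clones lay just below the control clones, so the groups did not overlap. The share of all rows whose groups separate was not computed, so separation is only described, here and for the other members. The order was control, shRNA 159, shRNA 162, with steps of 0.23 and 1.92 beside a pooled clone SD of 0.11. The difference from control was −2.16 with shRNA 162 (SE 0.10), which leaves 22.4% of the control signal, and −0.23 with shRNA 159 (SE 0.10), which leaves 85.0%. Between the hairpins the difference was 1.92, a signal 3.79-fold higher with shRNA 159. These values are a description with no test, because CYP24A1 was singled out for this pattern. The gap between the nearest clones was 1.99 for shRNA 162 against control and 0.19 for shRNA 159 against control. The remaining TAX1BP3 signal was also lower with shRNA 162 than with shRNA 159 (shRNA 159 minus shRNA 162, 0.47, adjusted p = 0.0130), and the number of groups is too small to relate it to CYP24A1. Because RNA came from whole cultures, fewer cells expressing CYP24A1 and less of its RNA per cell cannot be told apart.

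**Figure D1:**
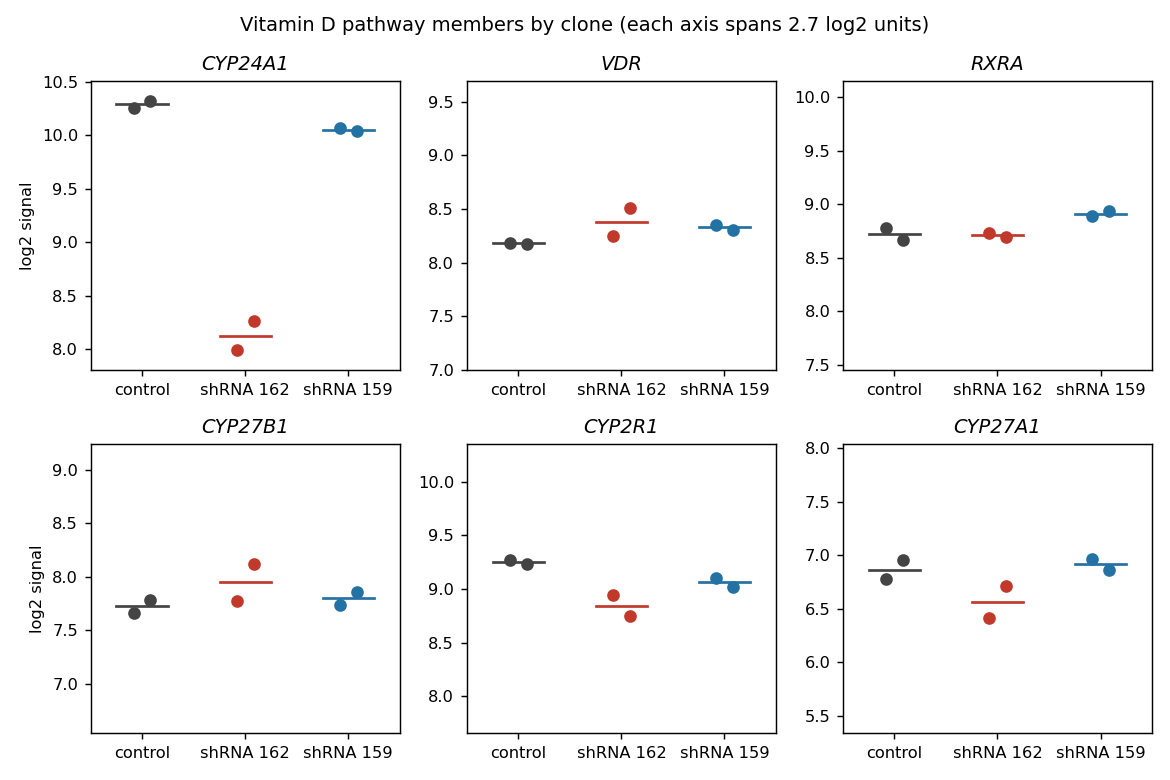
Log2 signal of the 6 members in each clone (points; lines are group means, 2 clones per group; each vertical axis spans the same range, placed around the gene's own values). The shRNA 162 clones of CYP24A1 sit at 7.99 and 8.26 while the other clones lie between 10.04 and 10.32; no other member moves as far.

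CYP2R1 and CYP27A1 make calcidiol, the substrate that CYP24A1 and CYP27B1 compete for. The 250 bases before the transcription start of each are shown because CYP2R1 was the only tested member with a passing difference and CYP27A1 carries out the same step. They come from RefSeq on GRCh38.p14, at chr11:14892444-14892693 on the minus strand for CYP2R1 (the most upstream of 3 listed starts) and chr2:218781897-218782146 on the plus strand for CYP27A1 (1 listed start), and are written 5′ to 3′ along the gene. Capitals mark hexamers of the kind bound by VDR with its partner: AGGTCA or AGGTGA, further AGTTCA or AGTTGA, then GGGTCA or GGGTGA, and lastly GGTTCA or GGTTGA, searched on both strands.
CYP2R1: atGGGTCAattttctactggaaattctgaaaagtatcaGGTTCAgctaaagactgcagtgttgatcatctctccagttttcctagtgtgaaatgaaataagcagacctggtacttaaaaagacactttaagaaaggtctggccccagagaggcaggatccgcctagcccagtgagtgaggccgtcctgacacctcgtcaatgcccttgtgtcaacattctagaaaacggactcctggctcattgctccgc
CYP27A1: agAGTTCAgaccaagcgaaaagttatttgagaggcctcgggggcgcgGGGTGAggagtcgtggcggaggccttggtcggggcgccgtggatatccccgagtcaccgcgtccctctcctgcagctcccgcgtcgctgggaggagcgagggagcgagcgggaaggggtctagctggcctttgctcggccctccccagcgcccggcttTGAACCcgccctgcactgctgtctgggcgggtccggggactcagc
The CYP2R1 window held GGGTCA starting 248 bases and GGTTCA starting 212 bases before the start. The windows of its other listed starts held 0 hexamers and 1 (TGACCC at 96 bases). The CYP27A1 window held AGTTCA at 248, GGGTGA at 203 and TGAACC, the reverse strand of GGTTCA, at 45 bases before the start. None of these windows held 2 hexamers in a row with 3 bases between them, an arrangement found in 0.202% of 35116 such windows, whereas 55.7% of them held at least 1 hexamer. The 2 listed starts of RXRA each had 1 hexamer before them, TCAACT at 248 and GGGTCA at 236 bases, and no spaced pair. No window was listed for CYP24A1, VDR or CYP27B1, so the search did not cover them. A match of letters is a description of these windows only, and no binding was measured.

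CYP2R1 (probe set 7946742, Entrez 120227) gave 9.27 and 9.23 in control clones, 8.95 and 8.74 with shRNA 162, and 9.11 and 9.02 with shRNA 159. The groups did not overlap, with control highest and shRNA 162 lowest. With shRNA 162 it fell by 0.41 on the log2 scale (SE 0.09, 95% interval −0.61 to −0.20), to 75.4% of control, with a limma adjusted p of 0.0279. The call was lost without control clone 1 (−0.39, adjusted p = 0.144), control clone 2 (−0.42, adjusted p = 0.115) or shRNA 162 clone 2 (−0.31, adjusted p = 0.184), and when all rows were tested (adjusted p = 0.0997). The difference with shRNA 159 was −0.19 (−0.39 to 0.02, adjusted p = 0.402) and that between hairpins 0.22 (0.01 to 0.43, adjusted p = 0.181).

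CYP27A1 (probe set 8048432, Entrez 1593), the mitochondrial enzyme that also oxidises cholesterol side chains, was dim: 6.78 and 6.96 in control, 6.42 and 6.71 with shRNA 162, and 6.96 and 6.87 with shRNA 159. All 6 values were below their array's median and above its lower quartile. The shRNA 162 clones were the lowest pair and overlapped no other group, and the shRNA 159 clones overlapped the controls. Its difference was −0.30 with shRNA 162 (−0.56 to −0.04, adjusted p = 0.143), 0.05 with shRNA 159 (−0.21 to 0.31, adjusted p = 0.892) and 0.35 between hairpins (0.09 to 0.61, adjusted p = 0.101).

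CYP27B1 (probe set 7964535, Entrez 1594), which makes calcitriol, gave 7.66 and 7.78 in control, 7.77 and 8.12 with shRNA 162, and 7.74 and 7.86 with shRNA 159. All 3 groups overlapped, and the high value was that of shRNA 162 clone 2. The difference was 0.22 with shRNA 162 (−0.05 to 0.49, adjusted p = 0.290), 0.07 with shRNA 159 (−0.20 to 0.35, adjusted p = 0.832) and −0.15 between hairpins (−0.42 to 0.12, adjusted p = 0.501).

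**Figure D2:**
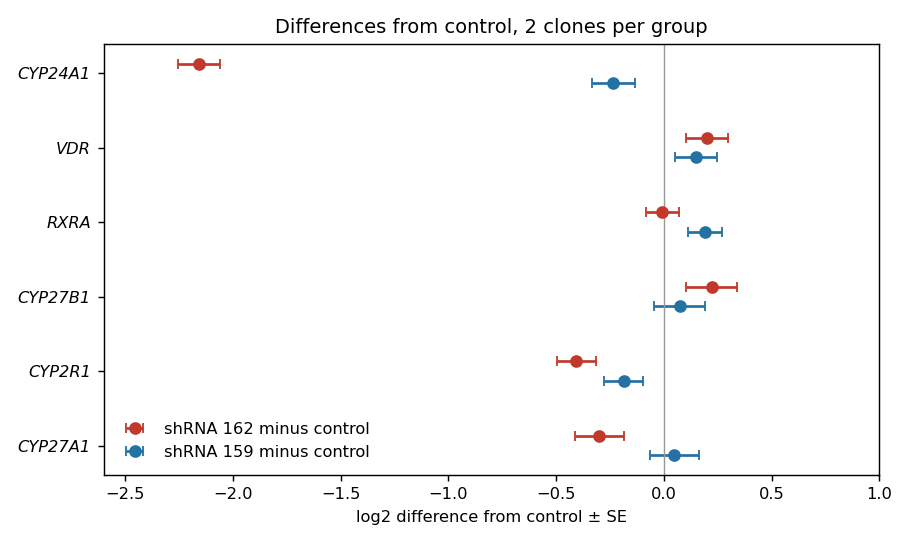
Log2 difference from control of each member (points) with its standard error from the limma fit, for shRNA 162 (red) and shRNA 159 (blue), 2 clones per group. CYP24A1 with shRNA 162 lies at −2.16; the other differences lie between −0.41 and 0.22.

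The receptor and its partner did not follow CYP24A1. VDR (probe set 7962689, Entrez 7421) gave 8.18 in both control clones, 8.24 and 8.51 with shRNA 162, and 8.35 and 8.31 with shRNA 159. All 4 shRNA clones were above both control clones, and the hairpins overlapped. Its difference was 0.20 with shRNA 162 (−0.02 to 0.42, adjusted p = 0.249), 0.15 with shRNA 159 (−0.08 to 0.37, adjusted p = 0.561) and −0.05 between hairpins (−0.27 to 0.17, adjusted p = 0.803). The interval with shRNA 162 therefore leaves room for a VDR signal up to 0.42 higher and at most 0.02 lower than control.

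RXRA (probe set 8159127, Entrez 6256) gave 8.77 and 8.66 in control, 8.73 and 8.69 with shRNA 162, and 8.89 and 8.93 with shRNA 159. The shRNA 162 values lay within the range of the controls, and the shRNA 159 clones were above the other 4. The difference was −0.007 with shRNA 162 (−0.19 to 0.17, adjusted p = 0.966), 0.19 with shRNA 159 (0.01 to 0.37, adjusted p = 0.317) and 0.20 between hairpins (0.02 to 0.38, adjusted p = 0.164).

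Genes beside CYP24A1 on chromosome 20 were examined next, 5 with a row on each side, ordered by RefSeq. With shRNA 162, 0 of these 10 rose and 1 fell, with differences from −0.50 to 0.13 and a median of −0.01. Of all tested rows, 5.88% rose and 3.64% fell with that hairpin. With shRNA 159, where 2.53% of all rows passed, 0 of them passed and the differences ran from −0.31 to 0.23. The nearest neighbours were BCAS1, at 0.13 with shRNA 162 and −0.03 with shRNA 159, and PFDN4, which encodes a prefoldin chaperone subunit, at −0.06 and 0.23. ZNF217, a zinc finger gene amplified in breast cancers, was at 0.01 and 0.21. The others before CYP24A1 (TSHZ2, ZNF217-AS1, SUMO1P1) and after it (DOK5, CBLN4, MC3R) passed with neither hairpin. The gene that fell was FAM210B, the outermost on its side (−0.50, SE 0.08, adjusted p = 0.0102; −0.01 with shRNA 159). That call was lost without control clone 2, shRNA 162 clone 1 or shRNA 162 clone 2 (adjusted p up to 0.0794) and with all rows tested. With shRNA 162, no neighbour differed from control as far as CYP24A1 did. In control clones TSHZ2, SUMO1P1, BCAS1, DOK5, CBLN4 and MC3R had mean signals of 6.37, 6.77, 6.69, 6.46, 6.04 and 7.10. All of these means were below the array medians, which leaves a fall less room to show.

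**Figure D3:**
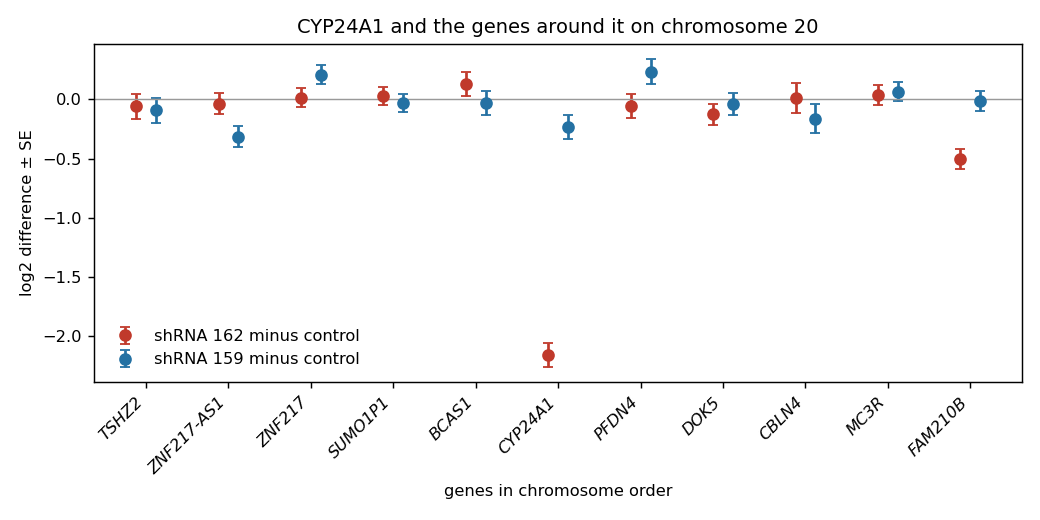
Log2 difference from control with its standard error for CYP24A1 and the 5 nearest measured genes on each side, in chromosome order, for shRNA 162 (red) and shRNA 159 (blue). CYP24A1 with shRNA 162 lies at −2.16 and its neighbours between −0.50 and 0.13.

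The other members had 10 such neighbours each. Of all tested rows, 9.52% passed with shRNA 162 and 2.53% with shRNA 159. With shRNA 162, 1 rose beside VDR (PFKM, 0.37), 1 fell beside CYP2R1 (COPB1, −0.29) and 1 fell beside CYP27A1 (FEV, −0.41); 0 passed beside RXRA and CYP27B1, and 0 beside any of these 5 with shRNA 159. Those 3 genes are named after their values were seen, and all 3 calls (adjusted p = 0.0183, 0.0497 and 0.0270) were lost without either control clone or either shRNA 162 clone (up to 0.123, 0.246 and 0.161).

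To find rows with a like pattern, the control mean was subtracted from each of 17797 rows of protein-coding genes, and the root mean square distance to CYP24A1 over the 6 arrays was taken in log2 units. The 8 nearest were chosen for this likeness, so their values are given without a test. SERINC2, a serine incorporator, was by far the nearest, at a distance of 0.10. Its r was 0.997 over 6 arrays that share the same 3 groups. It gave 11.03 and 11.07 in control, 8.73 and 8.96 with shRNA 162, and 10.95 and 11.01 with shRNA 159. Its difference from control was −2.21 with shRNA 162 and −0.08 with shRNA 159. SERINC2 has a further row on the array, which was not among the 8 nearest. The next genes were CPED1 at a distance of 0.398 (−1.64 with shRNA 162 and −0.65 with shRNA 159) and MAMDC2 at 0.399 (−1.49 and −0.35). CD24, a cell surface glycoprotein, followed at 0.417 (−1.47 and −0.20).

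SMARCA1, an ISWI chromatin remodeller, was at a distance of 0.434 and was lower with both hairpins (−2.05 and −0.95). MATN2, an extracellular matrix protein, was at 0.455 (−1.41 and −0.25), RASSF2, a Ras-association domain protein, at 0.467 (−1.40 and −0.02), and CLDN11, a tight junction claudin, at 0.477 (−1.36 and −0.09). In all 8, both shRNA 162 clones were below the other 4 arrays, a separation that their choice for likeness to CYP24A1 favours. With Pearson correlation in place of distance, among 133 rows whose group means spanned at least 1, the leading 8 were PHGDH, SERINC2, ADGRG1, CLDN11, PAX9, GPX3, CPA4 and FOXRED2, so SERINC2 and CLDN11 were in both sets.

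**Figure D4:**
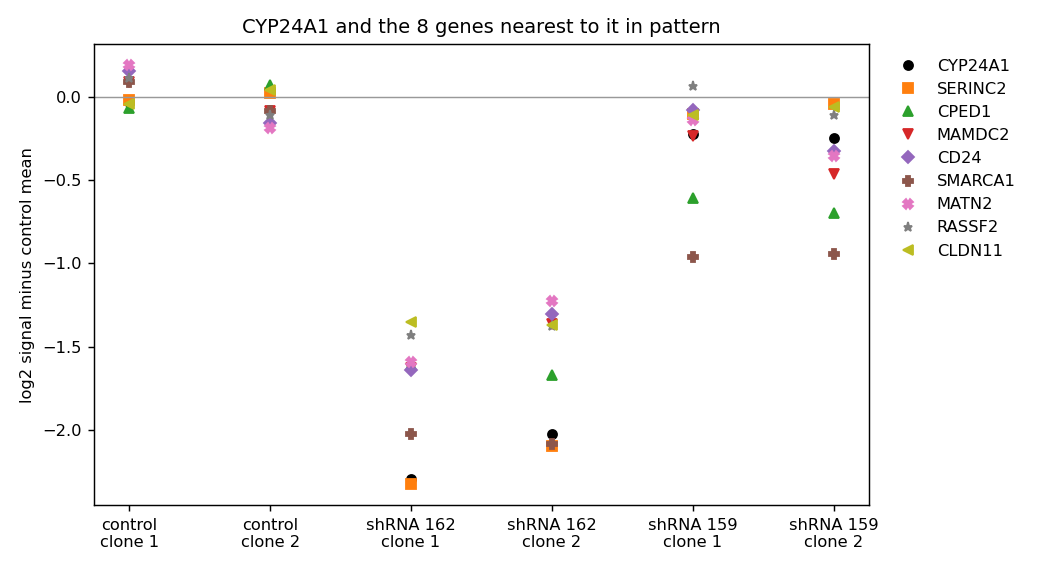
Log2 signal minus the control mean in each clone for CYP24A1 (black) and the 8 genes nearest to it. SERINC2 (orange) lies close to CYP24A1 on all 6 arrays; CPED1 and SMARCA1 are also lower with shRNA 159, at −0.65 and −0.95.

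Genes that respond to vitamin D in other systems were taken from a list of 47, of which 44 were measured. With shRNA 162, 3 rose and 4 fell (median difference −0.02, against 0.02 over all rows), where 5.88% of all rows rose and 3.64% fell. With shRNA 159, 4 rose and 2 fell (median −0.06, against −0.01), where 1.69% rose and 0.839% fell. Between hairpins 2 were higher with shRNA 159 and 3 lower, where 4.02% of all rows were higher and 4.64% lower. The 7 calls with shRNA 162 became 4 without control clone 2, shRNA 162 clone 1 or shRNA 162 clone 2, and the 6 with shRNA 159 became 2 without control clone 1 and 3 without control clone 2. IGFBP3, a carrier of insulin-like growth factors, fell with both: from 9.90 ± 0.09 (SD, n = 2) in control to 9.44 ± 0.07 with shRNA 162 (−0.45, adjusted p = 0.0151) and 9.06 ± 0.07 with shRNA 159 (−0.84, adjusted p = 0.0021). Its call with shRNA 162 was lost without either control clone or either shRNA 162 clone (adjusted p up to 0.107), and that with shRNA 159 held without each array in turn. CLDN12, a claudin of intestinal calcium absorption, rose with shRNA 162 from 9.80 ± 0.07 to 10.47 ± 0.01 (0.67, adjusted p = 0.0019) and with shRNA 159 to 10.34 ± 0.03 (0.55, adjusted p = 0.0083, up to 0.0815 without control clone 1 or 2).

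DUSP10, a phosphatase of stress kinases, rose with shRNA 162 (8.54 ± 0.01 to 9.16 ± 0.03; 0.62, adjusted p = 0.0027) and stood at 0.09 with shRNA 159. STEAP4, a metalloreductase, rose with shRNA 159 by 0.95 (adjusted p = 0.0022), but all 6 of its values were below the lower quartile of their array. The cell cycle inhibitors in the list, named after their values were seen, differed: CDKN1B rose with shRNA 162 (0.59, adjusted p = 0.0048) and was at 0.38 with shRNA 159 (adjusted p = 0.0608), while CDKN1A was at −0.18 (adjusted p = 0.269) and −0.25 (adjusted p = 0.275). The 6 genes that passed against control besides these are likewise named after their values were seen. FBP1, a gluconeogenic enzyme, fell with shRNA 162 (−0.55, adjusted p = 0.0045), and so did SLC37A2 (−0.56, adjusted p = 0.0173, up to 0.107 without control clone 2 or either shRNA 162 clone) and SERPINB1, a protease inhibitor (−0.42, adjusted p = 0.0204, up to 0.140 without either control clone or either shRNA 162 clone). With shRNA 159, NRIP1, a nuclear receptor corepressor, rose (0.73, adjusted p = 0.0099, up to 0.0739 without control clone 1 or shRNA 159 clone 1), as did MXD1, an antagonist of MYC (0.56, adjusted p = 0.0121, up to 0.127 without either control clone or shRNA 159 clone 1). TXNIP, a thioredoxin inhibitor, fell with shRNA 159 (−0.54, adjusted p = 0.0099, up to 0.101 without control clone 1 or 2).

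Receptor partners and coregulators numbered 24 measured of 27. With shRNA 162, 3 rose and 0 fell (median 0.10), and with shRNA 159, 2 rose and 0 fell (median 0.10). That is 12.5% and 8.33% of the list, beside 9.52% and 2.53% of all rows. Without control clone 1, 0 passed with either hairpin, and 1 passed with shRNA 162 without control clone 2 or either shRNA 162 clone, and with shRNA 159 without control clone 2, shRNA 159 clone 1 or either shRNA 162 clone. BAZ1B, a chromatin remodeller subunit known to bind VDR, rose from 10.03 ± 0.12 in control to 10.63 ± 0.08 with shRNA 162 (0.60, adjusted p = 0.0062) and 10.75 ± 0.06 with shRNA 159 (0.72, adjusted p = 0.0054). The former call was lost without control clone 1 or shRNA 162 clone 1 (adjusted p up to 0.0557) and the latter without control clone 1 (0.0538). SKIL, a repressor of TGF-beta signalling, rose with shRNA 162 (0.53, adjusted p = 0.0074, up to 0.0679 without control clone 1, control clone 2 or shRNA 162 clone 2).

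SMARCA4, a remodelling ATPase, rose with shRNA 162 (0.39, adjusted p = 0.0328, up to 0.180 without either control clone or either shRNA 162 clone). NCOA1, a receptor coactivator, rose with shRNA 159 (0.52, adjusted p = 0.0414, up to 0.213 without any 1 array other than shRNA 159 clone 2). Of the other retinoid X receptors, RXRB was at 0.23 with both hairpins (adjusted p = 0.0946 and 0.211), and RXRG was below the lower quartile on all arrays; both were named after their values were seen.

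Electron donors, which pass electrons to P450 enzymes, had 5 of 6 genes measured; FDX1, the ferredoxin that serves CYP24A1, CYP27A1 and CYP27B1, was at 0.07 with shRNA 162 (adjusted p = 0.639) and 0.03 with shRNA 159 (adjusted p = 0.890), and was named after its values were seen. POR, the reductase that serves CYP2R1, rose from 8.80 ± 0.05 to 9.27 ± 0.04 with shRNA 162 (0.47, adjusted p = 0.0087) and to 9.55 ± 0.05 with shRNA 159 (0.75, adjusted p = 0.0022). Its call with shRNA 162 was lost without control clone 1, shRNA 162 clone 1 or shRNA 162 clone 2 (adjusted p up to 0.0777). CYB5R3, the cytochrome b5 reductase, fell with shRNA 162 from 10.81 ± 0.03 to 10.18 ± 0.05 (−0.63, adjusted p = 0.0024) and was at 0.16 with shRNA 159 (adjusted p = 0.371). FDX2 and CYB5A passed in no comparison, at −0.29 and 0.11 with shRNA 162. The list thus had 1 gene up and 1 down with shRNA 162 and 1 up with shRNA 159, 40% and 20% of 5 genes, beside 9.52% and 2.53% of all rows.

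Transport, uptake and other enzymes of vitamin D had 15 of 19 genes measured, with 1 up and 1 down for each hairpin (medians 0.01 and −0.08), 13.3% of the list beside 9.52% and 2.53% of all rows. Without control clone 2, 0 passed with either hairpin, and without control clone 1, 0 passed with shRNA 162 and 1 with shRNA 159. Without shRNA 162 clone 1 or 2, 1 and 0 passed with shRNA 162, and without shRNA 159 clone 1, 1 passed with shRNA 159. DAB2, an endocytic adaptor of megalin, rose with shRNA 159 from 9.29 ± 0.13 to 9.91 ± 0.03 (0.62, adjusted p = 0.0083, up to 0.0792 without control clone 2 or shRNA 159 clone 1), while the receptors of that uptake route, LRP2 and CUBN, were below the array median on all arrays and passed in no comparison. CYP2J2, a further enzyme able to hydroxylate vitamin D, fell with shRNA 159 (8.26 ± 0.07 to 7.58 ± 0.11; −0.67, adjusted p = 0.0079, up to 0.0759 without control clone 1 or 2). FGFR1, the receptor of FGF23, rose with shRNA 162 (0.34, adjusted p = 0.0340) and PTH1R, the parathyroid hormone receptor, fell (−0.38, adjusted p = 0.0306); both calls were lost without either control clone or either shRNA 162 clone (adjusted p up to 0.191 and 0.174). DHCR7, which draws the vitamin D precursor into cholesterol synthesis, was at 0.25 with shRNA 162 (adjusted p = 0.0773) and −0.19 with shRNA 159 (adjusted p = 0.308), and differed between hairpins (−0.44, adjusted p = 0.0114, up to 0.0866 without shRNA 162 clone 1 or 2). LRP2, CUBN and PTH1R were named after their values were seen.

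Other cytochrome P450 genes, 38 measured of 45, had 2 up and 2 down with shRNA 162 and 3 up and 0 down with shRNA 159 (medians 0.03 and −0.08), 10.5% and 7.89% of the list beside 9.52% and 2.53% of all rows. Without either control clone or either shRNA 162 clone, 2 passed with shRNA 162. CYP1B1, which oxidises oestrogens, rose with shRNA 162 from 6.64 ± 0.06 to 7.71 ± 0.14 (1.07, adjusted p = 0.00077) and with shRNA 159 to 7.13 ± 0.12 (0.49, adjusted p = 0.0422, up to 0.206 without control clone 1, control clone 2 or shRNA 159 clone 1). CYP2S1 fell with shRNA 162 (−0.33, adjusted p = 0.0325, up to 0.173 without either control clone or either shRNA 162 clone) and rose with shRNA 159 (0.74, adjusted p = 0.0024). CYP51A1, a sterol demethylase with a further row on the array, rose with both (0.59 and 0.65, adjusted p = 0.0028 and 0.0036). CYP20A1 fell with shRNA 162 (−0.45, adjusted p = 0.0082, up to 0.0682 without either control clone or either shRNA 162 clone).

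Among other nuclear receptors, 34 measured of 43, 1 rose and 4 fell with shRNA 162 (median −0.05) and 0 passed with shRNA 159 (median −0.01), 14.7% and 0% of the list beside 9.52% and 2.53% of all rows. With shRNA 162, 2 passed without control clone 1, and 1 without control clone 2 or either shRNA 162 clone. With shRNA 159, 1 passed without shRNA 159 clone 1. RARB, a retinoic acid receptor that also pairs with RXRA, fell with shRNA 162 from 7.31 ± 0.08 to 6.44 ± 0.25 (−0.87, adjusted p = 0.0043) and was at 0.04 with shRNA 159. HNF4G fell by 0.52 on the log2 scale (adjusted p = 0.0143), NR2F1 by 0.41 (adjusted p = 0.0307) and THRA, a thyroid hormone receptor, by 0.32 (adjusted p = 0.0473). The calls of HNF4G and THRA were lost without either control clone or either shRNA 162 clone (adjusted p up to 0.0965 and 0.257), and that of NR2F1 without control clone 2 or either shRNA 162 clone (0.175). NR1D1, a clock repressor named after its value was seen, rose with shRNA 162 (0.33, adjusted p = 0.0478), a call lost without either control clone or either shRNA 162 clone (adjusted p up to 0.235) and after quantile normalization.

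**Figure D5:**
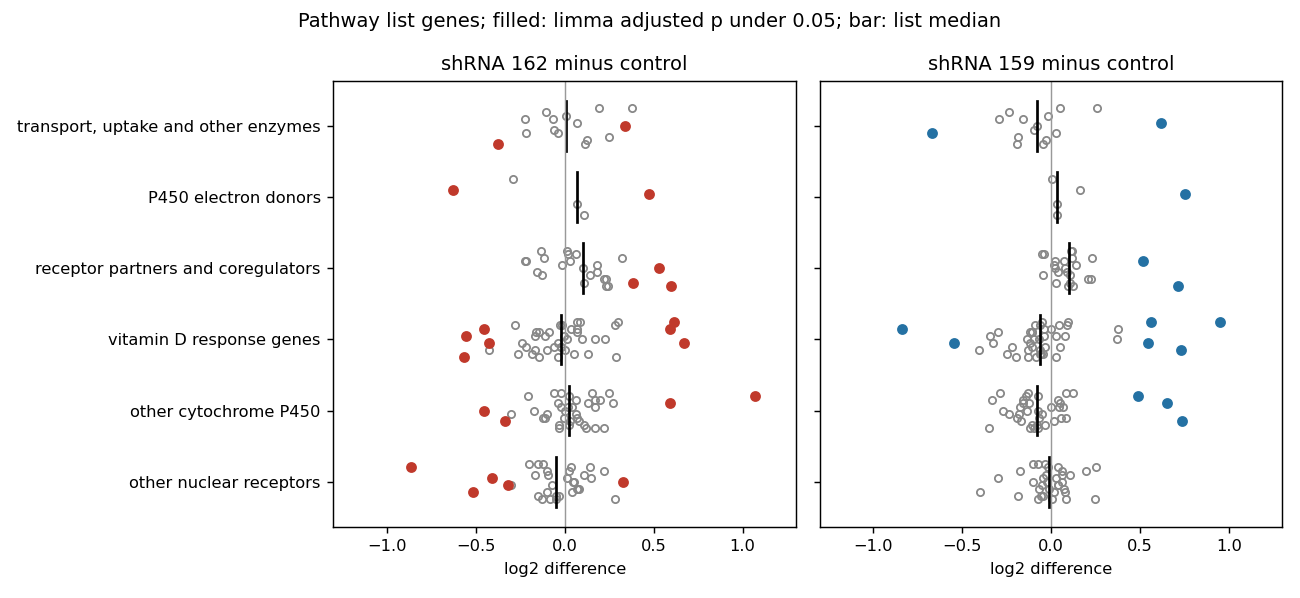
Log2 difference from control for each measured gene of the 6 pathway lists, with shRNA 162 (left, red when passing) and shRNA 159 (right, blue when passing); filled points have a limma adjusted p under 0.05, open points do not, and bars are list medians. The medians lie between −0.08 and 0.10.

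Chromosome 7 held several of the genes that rose: POR, BAZ1B, CLDN12, STEAP4 and CYP51A1. IGFBP3, which fell with both hairpins, lies there too. Of 890 rows there with 1 symbol, 8.65% rose with shRNA 162 and 7.53% with shRNA 159, beside 5.88% and 1.69% of all tested rows. Without chromosome 7 genes, the vitamin D response list had 2 up and 3 down of 39 with shRNA 162 and 2 up and 1 down with shRNA 159. The coregulators then had 2 and 1 up of 23 genes, the electron donors 0 up of 4 with either hairpin, and the other P450 genes 1 up and 2 down with shRNA 162 and 2 up with shRNA 159 of 34. None of the 6 members lies on chromosome 7. On chromosome 11, which holds CYP2R1, 1.86% of 1287 rows rose and 5.75% fell with shRNA 162, beside 5.88% and 3.64% of all rows; the part of this in the CYP2R1 value was not tested. On chromosome 20, which holds CYP24A1, 2.74% of 547 rows rose and 4.57% fell with shRNA 162. Chromosome 12, with VDR and CYP27B1, had 11.9% of 1021 rows up and 1.86% down with that hairpin. Chromosome 9, with RXRA, had 6.41% of 765 rows up with shRNA 162 and 5.75% with shRNA 159, and chromosome 2, with CYP27A1, had 5.20% and 8.37% of 1231 up.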

How the data were processed

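RNA of 6 clones was measured on 1 array each. The authors deposited 1 log2 signal for each probe set and array, made with the Affymetrix Exon Array Computational Tool, per the series' design text. The tool's settings and the genome build were not given in the sources used here. Values ran from 2.29 to 14.65, from which the base of the logarithm was inferred. Gene symbols were read from the platform annotation: 19460 rows had 1 symbol and 1754 several, and 403 tested rows repeated an earlier row. Arrays give no count depth; their number limits the precision. Detection calls were not used here, so dimness is given by array quartiles.

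Values were used as deposited. limma 3.58.1 in R 4.3.3 (lmFit, eBayes) was fitted to 3 groups over all 21214 rows (3 residual and 5.31 prior degrees of freedom), with two-sided tests and Benjamini-Hochberg adjustment over all rows; rows passed at an adjusted p under 0.05. Fold changes are powers of the log2 differences. Tables used pandas 2.3.3, and figures matplotlib 3.10.9 in Python 3.11.15. On simulated data for shRNA 162 minus control with 21214 rows, the fit recovered 38.8% of changes of 0.5, 88.1% of 1 and 98.5% of 2 log2 units, and 3.23% of its calls were false. The simulated noise was normal and independent between rows, with no effect shared by a clone or array. These shares therefore need not hold for the measured arrays.

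The members and lists were chosen with earlier results of these data known. There were 6 pathway lists and 6 marker lists (mesenchymal, luminal, leukocyte, fibroblast, endothelial, adipocyte), and of several rows for 1 gene the brightest was used. The rule for named genes took the members, TAX1BP3, the 5 neighbours of CYP24A1 on each side, the 8 genes most like it, and up to 4 genes per pathway list with the smallest p in any of the 4 comparisons; others, apart from cell type markers and the leading genes by Pearson correlation, are marked. Alternatives were omission of each array, fits to just the 4 arrays compared, a replicate block, a variance trend, quantile normalization, the table's brighter rows, all its rows, 1 group for all shRNA clones, and Pearson correlation for likeness. Lists without chromosome 7 were added after seeing the data. Promoter windows came from a RefSeq table on GRCh38.p14, matched by symbol for CYP2R1, CYP27A1 and RXRA.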

Additional observations from a re-analysis of the deposited data

Results flagged for a closer look

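Each gene here was flagged because the difference between the hairpins, shRNA 159 minus shRNA 162, itself passed in the limma fit. Over all tested rows, 8.65% passed in this comparison. The share was 11.4% of 44 response genes, 26.7% of 15 transport and enzyme genes and 20% of 5 electron donors. It was 8.33% of 24 coregulators, 10.5% of 38 other P450 genes and 5.88% of 34 nuclear receptors. Of 10 neighbours of CYP24A1, 10 of VDR, 8 luminal and 6 fibroblast markers, 1 each passed. CYP24A1 and the genes chosen for likeness to it carry no test and were not considered. Among vitamin D response genes, the log2 difference was 0.86 for STEAP4, 0.73 for NRIP1, −0.52 for DUSP10, −0.42 for KLF4 and −0.38 for IGFBP3. Transport and enzyme genes gave 0.55 for DAB2, −0.45 for CYP2J2, −0.44 for DHCR7 and −0.42 for FGFR1. CYB5R3, an electron donor, differed by 0.79. The coregulators NCOA1 and SKIL differed by 0.74 and −0.51. Other P450 genes gave 1.07 for CYP2S1, −0.58 for CYP1B1, −0.57 for CYP4Z1 and −0.38 for CYP19A1. The nuclear receptors RARB and THRA differed by 0.90 and 0.36, and FAM210B, a neighbour of CYP24A1, by 0.49. PFKM, a neighbour of VDR, differed by −0.44. Of the cell type markers, EPCAM differed by 0.79 and PDGFRB by 0.41.

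The calls of CYB5R3, NCOA1, STEAP4, DUSP10, NRIP1, CYP2S1, RARB and EPCAM held without each array in turn (adjusted p up to 0.0473). The other calls were lost without at least 1 array. DAB2 and CYP1B1 lost theirs without shRNA 162 clone 1 (adjusted p 0.0583 and 0.0776), SKIL without shRNA 162 clone 2 (0.0759), DHCR7, FAM210B and PFKM without either shRNA 162 clone (up to 0.0866, 0.0785 and 0.0713), and CYP2J2, FGFR1, KLF4 and PDGFRB without shRNA 159 clone 2 or either shRNA 162 clone (up to 0.144, 0.110, 0.114 and 0.127). IGFBP3 lost it without any shRNA clone (up to 0.181), CYP4Z1 without either shRNA 159 clone or shRNA 162 clone 1 (up to 0.171), and CYP19A1 and THRA without any array (up to 0.240 and 0.208). NRIP1, KLF4, CYP4Z1 and CYP19A1 are named after their values were seen.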

How the results depend on the processing

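CYP24A1 was lower than control with both hairpins under every alternative run, but several of these could not change its differences. Testing all rows or brighter rows, fitting just the arrays compared, a replicate block and a variance trend left them as reported. The gene was also singled out for this pattern, so the same sign across runs adds no evidence. For CYP24A1, quantile normalization gave −2.19 with shRNA 162, −0.28 with shRNA 159 and 1.92 between hairpins. Leaving out 1 array gave −2.29 to −2.02 with shRNA 162, −0.26 to −0.20 with shRNA 159 and 1.79 to 2.06 between hairpins. CYP2R1 with shRNA 162 ranged from −0.51 to −0.31 over the same omissions and was no longer past the threshold with all rows tested (−0.41, adjusted p = 0.0997). Differences that never passed changed sign when 1 array was left out for VDR between hairpins (−0.18 to 0.083), RXRA with shRNA 162 (−0.062 to 0.047), CYP27B1 between hairpins (−0.32 to 0.024) and CYP27A1 with shRNA 159 (−0.042 to 0.14).

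Rows passing with shRNA 162 numbered 691 with all rows tested, 3090 among brighter rows and 3482 with a variance trend; with shRNA 159 they numbered 111, 946 and 1137. Between hairpins there were 593 with all rows and 3022 with the trend. For the mean of both hairpins there were 226, 1992 and 2265, and 71 with the shRNA clones as 1 group. The cause was not tested. Leaving out 1 array gave 526 to 2416 rows with shRNA 162 (526, 636, 697 and 570 without control clones 1 and 2 and shRNA 162 clones 1 and 2), 142 to 512 with shRNA 159 (182, 142 and 247 without control clones 1 and 2 and shRNA 159 clone 1), 597 to 1352 between hairpins (597, 651 and 1204 without shRNA 162 clones 1 and 2 and shRNA 159 clone 2) and 187 to 1138 for the mean (187, 197, 551 and 456 without control clones 1 and 2 and shRNA 162 clones 1 and 2). Fits without 1 array take the lone clone's spread from the other groups.

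Of 73 calls of pathway list genes, 25 held without each array in turn and 22 under every alternative; 36 were lost without control clone 1, 34 without control clone 2 and 43 with all rows tested. Deviations of clones with the same number correlated at −0.05 between control and shRNA 162 and at −0.03 between the hairpins. Between control and shRNA 159 they correlated at 0.26. With the replicate block, 2128, 584, 1983 and 1011 rows passed in the 4 comparisons, and CYP2R1 with shRNA 162 had a limma adjusted p of 0.0196. The block ended the calls of THRA and COPB1 with shRNA 162 (adjusted p = 0.0530 and 0.0574) and that of NR2F1 for the mean of both hairpins. STEAP4 was below the lower quartile on all 6 arrays, and CYP19A1 was above it on just 1. CYP27A1 and HNF4G lay between the lower quartile and the median on all 6 arrays. Having 2 clones per group limits every interval.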
